A study of Mus musculus with 38 samples.

Results

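The subcortical maternal complex is a protein assembly beneath the cortex of the mammalian oocyte and early embryo. Its mRNAs accumulate in the growing oocyte, and the complex is needed for the embryo to develop beyond its first cleavages. The assembly is linked to the cytoplasmic lattices, fibrous stores in the egg cytoplasm. Because the fully grown oocyte does not transcribe, the supply of new complex protein depends on which stored mRNAs are held on ribosomes. The 7 genes described here were chosen by gene symbol. They are Ooep, Nlrp5, Tle6 and Khdc3, which encode the core proteins, and Padi6, Zbed3 and Nlrp2, whose proteins associate with it. All 7 are among the 23125 genes of the deposited table, and 6 of them were among the 7967 that passed the minimum for testing, a geometric mean of 0.1 FPKM over the libraries. Nlrp2 did not pass it and is described by its values. The list was drawn up with results of these data known, and Ooep had been singled out for its M-phase polysome values, so the M-phase changes of Ooep in polysomes are given below as a description with no test. Other tests of Ooep that draw on its polysome values are given, but they share those values and give no independent support.

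The study asked how mRNA loading onto ribosomes differs between interphase and M-phase in oocytes and early embryos. RNA was sequenced from oocytes and embryos of adult ICR mice at 6 stages, of which those in interphase were labelled as wild type. GV oocytes were fully grown oocytes of gonadotropin-stimulated females, denuded of cumulus cells, and MII oocytes were such oocytes cultured to the second meiotic metaphase. Zygotes came from stimulated and mated females and were in interphase, and two-cell embryos were cultured from zygotes. The zygote M and two-cell M embryos were held in the M-phase of the first and second mitosis with nocodazole, a drug that depolymerizes microtubules. MII oocytes reached M-phase without it, so drug and mitotic M-phase cannot be told apart. GV oocytes were not cultured on, and interphase zygotes were collected at isolation. In meiosis and the first mitosis, M-phase and time in culture therefore cannot be told apart either. Each lysate was spread by centrifugation on a sucrose gradient, 5 lighter fractions were pooled as non-polysome RNA and 5 heavier ones as polysome RNA. There were 3 libraries per stage and pool, named as biological triplicates, and FPKM is relative to the RNA of its own pool. Fewer transcripts in each cell and a smaller share of cells carrying them cannot be told apart in such pooled samples. Neither can loss of an mRNA and a rise in the rest of the pool.

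The libraries differed in how much they detected. Between 5140 and 10525 genes lay above 0.1 FPKM, and 43.2% of all values were at the smallest value in the table, 0.01. Read counts were not used here, so the depth is unknown. The 10 oocyte markers were all measured, summing to between 2000 and 5600 FPKM in oocyte libraries. The sum was between 986 and 1130 in zygotes and between 330 and 575 in zygote M. It was between 281 and 393 in two-cell and between 5.7 and 165 in two-cell M. The 12 measured cumulus and granulosa markers summed to at most 55 FPKM in any library, with 4 to 9 of them at the smallest value throughout a group. The 4 measured blood markers summed to between 34.3 and 162 FPKM in two-cell libraries and between 0.04 and 52.6 in two-cell M, against at most 1.33 at the other stages. Nearly all of this was Hba-a1, a haemoglobin gene, with Hbb-bs and Hbb-bt at or near the smallest value in embryos of both two-cell groups. Its part in the two-cell results was not tested. By its oocyte markers, library C of the two-cell M embryos stood apart from A and B. Its oocyte markers summed to 165 FPKM in polysomes, against 55.4 and 32.6, and to 93.2 in the non-polysome pool, against 14.4 and 5.7. The members' changes into two-cell M are therefore also given without both C libraries, an alternative chosen after the data were seen. Library C also held the highest value of every member in two-cell M polysomes. Leaving it out, with A and B alone remaining, was thus bound to lower their levels there. Changes and calls gained without C therefore give no support for a fall. Other markers set other two-cell M libraries apart. Those of the two-cell embryo summed to 25.5 FPKM in non-polysome B, against 360 and 375, and to 10.3 in polysome A, against 69.1 and 137. Blood markers summed to 0.04 in non-polysome B, against 52.6 and 51.3.

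The members spanned a wide range of abundance. Zbed3, which encodes a zinc finger protein of the complex, had the highest mean over the 36 libraries, 1040 FPKM, and ranked 12 among all genes. Ooep, encoding a KH-domain protein of the core, averaged 724 FPKM and ranked 24. Khdc3, also a KH-domain protein gene, averaged 204 FPKM, Tle6, a Groucho family member without the usual corepressor role, 135 FPKM, and Padi6, a peptidylarginine deiminase family member needed for the lattices, 71.3 FPKM. Nlrp5, also known as Mater, averaged 1.76 FPKM and ranked 4197, and its relative Nlrp2 averaged 0.198 FPKM. On the GRCm38 build used by the table, Ooep lies at chr9:78376109-78378725 and Khdc3 at chr9:73101836-73104438. Nlrp5 is at chr7:23385889-23441922 and Nlrp2 at chr7:5298547-5351035. Tle6 is at chr10:81590904-81601073, Padi6 at chr4:140727355-140742643 and Zbed3 at chr13:95323612-95337841.

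In oocytes, stored mRNAs are often switched on through their 3′ ends, where a polyadenylation signal, AATAAA or ATTAAA, lies near cytoplasmic polyadenylation elements such as TTTTAT or TTTTAAT. The last 100 bases of 1 annotated transcript per gene (GENCODE M21, GRCm38) were searched for these letters on the transcript strand. Of 7 members, 6 held AATAAA, among them Nlrp2, which was not tested, and Ooep held neither signal in this window. Of 5911 tested protein-coding genes, 66.5% held AATAAA and 82% held AATAAA or ATTAAA, so the members lie near the share of all genes. Zbed3 was the member with TTTTAT or TTTTAAT, which 19.5% of the 5911 genes had. The stretch of Zbed3 is shown because it alone among the members holds these elements, beside those of 3 members with a signal only. Capitals mark the matched letters, and in Zbed3 the letters TTTTAAT and AATAAA overlap. The stretches lie in 3′ UTRs, at chr13:95337810-95337839 (plus strand) for Zbed3, chr9:73104409-73104438 (plus) for Khdc3, chr10:81590907-81590936 (minus) for Tle6 and chr4:140727361-140727390 (minus) for Padi6. A match describes letters, not a used site.
Zbed3: tttttttTTTTAATAAAcTTTTATttatct
Khdc3: ttaaagtattctAATAAAaaaaaaattgca
Tle6: cgagttgcgtgtAATAAAacaattgaaatg
Padi6: tgccatagagccAATAAAgcatggtattct

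Ooep had the highest level of the core genes in GV polysomes, with 3480, 3760 and 2500 FPKM in the 3 libraries. In MII polysomes it was at 169, 231 and 284 FPKM. Every MII value lay below every GV value, and the log2 fold change was -3.84. In zygote polysomes it was at 669, 847 and 969 FPKM, and in zygote M at 113, 95.5 and 101, a log2 fold change of -2.99. Two-cell polysomes held 236, 250 and 290 FPKM and two-cell M polysomes 19.4, 21 and 49.6, a log2 fold change of -3.24. Each M-phase group thus lay wholly below its interphase group, on a scale that itself moved down from GV to zygote to two-cell. In the non-polysome pool Ooep was at 1690 ± 200 FPKM (SD, n = 3) before and 528 ± 59.0 after maturation to MII, a log2 change of -1.68 ± 0.42 (SE; limma adjusted p = 0.00574). From zygote to zygote M it went from 1520 ± 101 to 115 ± 10.0 FPKM there, a log2 fold change of -3.72 (adjusted p = 7.36e-07). From two-cell to two-cell M the non-polysome change was -2.67 (adjusted p = 9.79e-06), a call that ended in a fit of the 2 groups alone (adjusted p = 0.108). Without both C libraries this change was -3.35 outside polysomes and -3.68 in them. In both pools each M-phase group of Ooep lay wholly below its interphase group. Groups of 3 often do not overlap: in meiosis, the first and the second mitosis this held for 47.5%, 56.5% and 43.4% of tested genes in polysomes and for 47.6%, 36.6% and 28.9% outside them, in either direction.

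Zbed3 followed another course. In polysomes it was at 3400, 2970 and 3530 FPKM in GV and at 838, 574 and 846 in MII, which gave a log2 fold change of -2.15 ± 0.42 (adjusted p = 0.00119). Zygote polysomes held 692, 608 and 751 FPKM and zygote M polysomes 1130, 1300 and 1170. Every zygote M value was above every zygote value, but the log2 fold change of 0.82 (95% interval -0.05 to 1.68) was not called (adjusted p = 0.354). In the second mitosis Zbed3 moved the other way, from 779, 948 and 631 FPKM in two-cell to 75.3, 38.4 and 138 in two-cell M, a log2 fold change of -3.40 (adjusted p = 6.17e-07) and of -3.85 without library C. Its non-polysome level was highest in zygote M, at 2300, 2440 and 2260 FPKM, against 779, 738 and 718 in zygotes. That rise, of 1.65 on the log2 scale (adjusted p = 0.0109), was not called after quantile normalization or in a fit of the non-polysome libraries alone (adjusted p over all alternatives between 0.00319 and 0.116). In the fit over all libraries no other member was called higher in an M-phase than in its interphase. Under alternatives, Tle6 was called higher in MII than in GV outside polysomes with the 2 groups alone (1.14, adjusted p = 0.0199), and Nlrp5 in two-cell M without non-polysome library B (adjusted p = 0.0258).

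**Figure D1:**
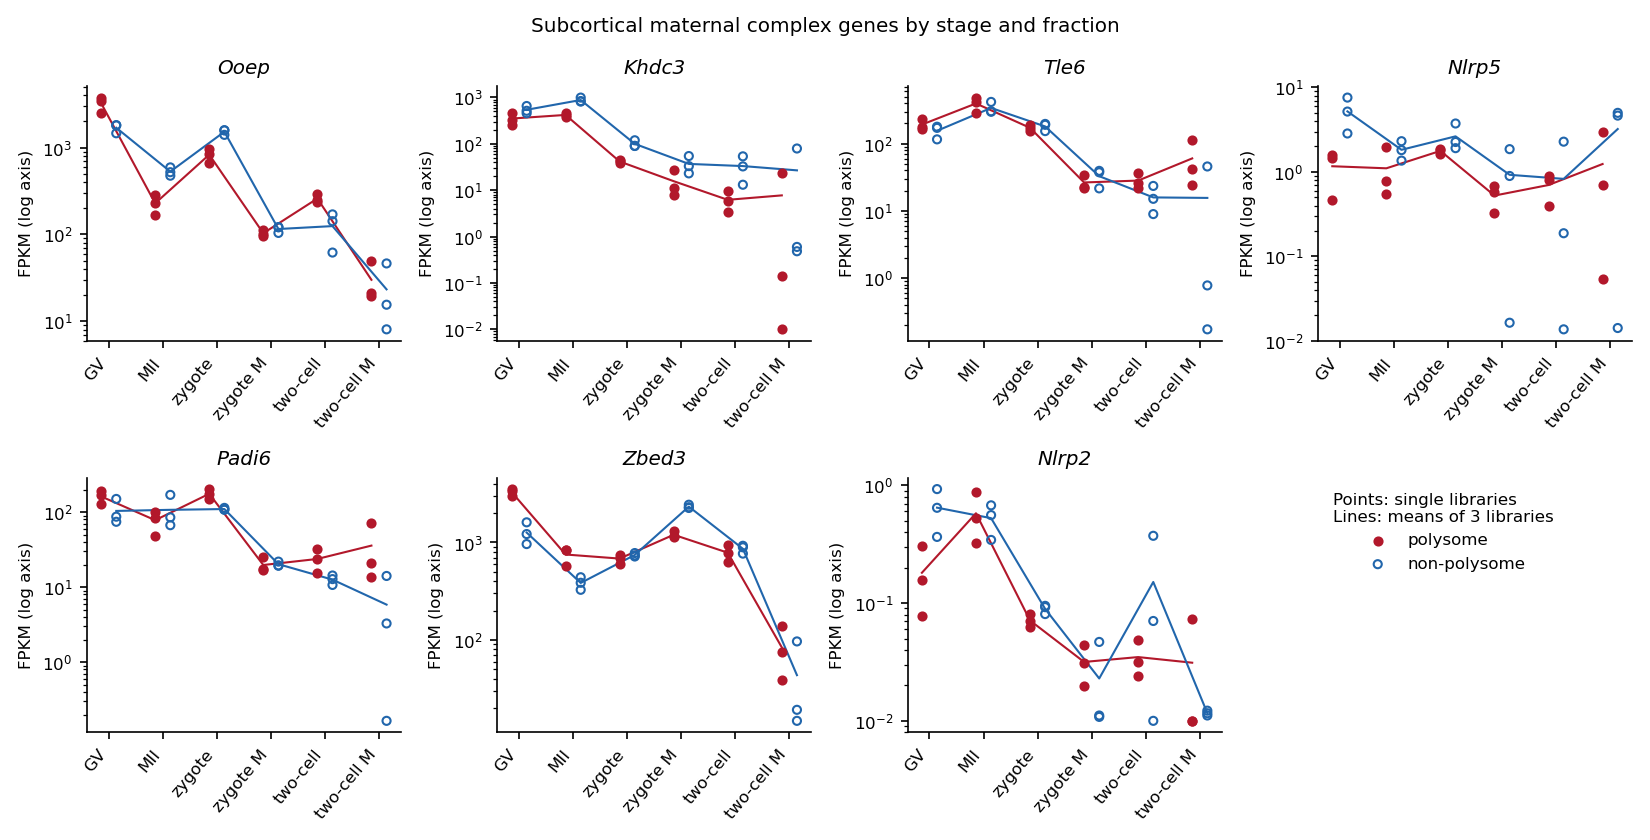
FPKM (log axis) of the 7 subcortical maternal complex genes at 6 stages, with filled red points for single polysome libraries, open blue points for single non-polysome libraries and lines through the means of 3 libraries. Ooep falls at each M-phase in both pools, Zbed3 is at its highest non-polysome level in zygote M (2340 FPKM on average), and the two-cell M points of Khdc3 and Tle6 are widely spread.

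Khdc3 stayed high through meiosis and was low in embryos. Its polysome values were 464, 328 and 256 FPKM in GV and 378, 460 and 418 in MII, and these groups overlapped. Zygotes held 43.8, 39 and 41.7 FPKM, zygote M 11.4, 27.4 and 8.04, and two-cell 9.47, 5.8 and 3.31. In two-cell M the values were 0.01, 0.143 and 23, so library C lay above every two-cell library while A and B lay below them. The mean was higher in two-cell M, at 7.73 FPKM against 6.19, while the log2 fold change was -4.14 (adjusted p = 0.0436). That call ended in 11 of 15 alternatives, among them those without any 1 two-cell library, and without two-cell M library A or B (adjusted p between 0.0591 and 0.428). Without both C libraries, which removes the highest two-cell M value, the change was -7.23 (adjusted p = 8.92e-09). With 1 added to each FPKM it was -1.16 (adjusted p = 0.423, and 8.92e-09 to 0.428 over all alternatives). From MII to two-cell M the change was -10.35 (adjusted p = 6.46e-06), a size set by values at or near the smallest value, -7.11 with 1 added and -13.43 without both C libraries. From GV to two-cell Khdc3 fell by 5.90 on the log2 scale in polysomes (adjusted p = 0.0108) and its log2 fold change from MII to zygote M was -4.94 (adjusted p = 0.0402). The second of these was not called without any 1 of the 6 libraries compared (adjusted p between 0.0612 and 0.128).

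Tle6 was highest in MII polysomes, at 486, 291 and 414 FPKM, each above the 234, 167 and 177 FPKM of GV. The log2 fold change of 1.03 was not called (95% interval -1.02 to 3.08, adjusted p = 0.673). Zygote polysomes held 190, 157 and 170 FPKM and zygote M polysomes 22.2, 34.5 and 22.7. These groups did not overlap, as for 56.5% of tested genes, and the log2 fold change of -2.73 did not pass in the fit over all libraries (adjusted p = 0.12). From MII to zygote M the log2 fold change was -3.91 (adjusted p = 0.00819), and from MII to two-cell M it was -2.99 (adjusted p = 0.0137, 0.0677 without two-cell M library B, and a change of -3.61 without both C libraries). In two-cell M polysomes the values of 41.9, 24.2 and 115 FPKM overlapped the 25.6, 37.2 and 21.9 FPKM of two-cell. That log2 change was 0.82 (adjusted p = 0.547), and 0.21 without library C.

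Padi6 was at 167, 128 and 191 FPKM in GV polysomes and 101, 48.6 and 84.7 in MII, with no call (log2 fold change -1.10, 95% interval -2.83 to 0.64, adjusted p = 0.553). Zygotes held 203, 150 and 174 FPKM, which overlapped GV, and zygote M 16.9, 25 and 17.3. The log2 fold change was -3.17 (adjusted p = 0.0205). The call ended without zygote library B, C or D, or without zygote M library A or C (adjusted p between 0.0597 and 0.0818). In the second mitosis the two-cell values of 32.4, 15.3 and 23.6 FPKM overlapped the two-cell M values of 21.3, 13.5 and 72.6 (log2 fold change 0.28, 95% interval -1.46 to 2.01). The estimate changed sign without both C libraries, to -0.42 (adjusted p = 0.744).

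Nlrp5 was low at every stage, with group means between 0.525 and 1.77 FPKM in polysomes and between 0.828 and 5.20 FPKM outside them. Its values spread widely within groups, for example 0.0142, 4.64 and 5 FPKM in non-polysome two-cell M libraries. In the fit over all libraries none of the 7 polysome comparisons gave a call for Nlrp5 by limma, nor an unadjusted p under 0.05. In a fit of zygote and zygote M polysomes alone it was called lower in zygote M (-1.82, adjusted p = 0.00992). Nlrp2 was at 0.885, 0.528 and 0.325 FPKM in MII polysomes, its highest polysome group, and at 0.078, 0.157 and 0.308 in GV, with no overlap. From the zygote on, its polysome values lay between 0.01 and 0.0804 FPKM, close to the smallest value of the table. How reads shared between related genes were handled is not given, and its part in the low values of Nlrp5 and Nlrp2 was not tested.

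The members called in each comparison were counted. A call needs a Benjamini-Hochberg adjusted p under 0.05 in limma over all tested genes and a fold change over 2. Between MII and GV polysomes, 1 of 5 members other than Ooep was called (Zbed3, lower), against 6.11% of all tested genes. Between zygote M and zygote it was 1 of 5 (Padi6, lower), against 5.75%. Between two-cell M and two-cell it was 2 of 5 (Khdc3 and Zbed3, both lower), against 36.3%, a share near that of all genes. The median log2 change of the 5 was -0.10, -1.82 and -0.46 in these comparisons, and that of all tested genes 0.18, -0.43 and -1.17. With a fit of the 2 groups alone, 4 of 5 were called lower in zygote M than in zygote (Nlrp5, Tle6, Khdc3 and Padi6), against 33.1% of tested genes. The fit over all libraries uses 1 pooled spread for each gene. For Nlrp5, Tle6 and Khdc3, which gained a call, the pooled residual SD of log2 FPKM was 2.29, 1.30 and 2.10, against 0.11, 0.14 and 0.09 within zygote polysomes and 0.57, 0.36 and 0.91 within zygote M polysomes. Within two-cell M polysomes the SD was above the pooled one for every tested member but Tle6, at 2.94 for Nlrp5 and 5.68 for Khdc3. There the pooled fit understates their spread. With two-cell M and two-cell polysomes alone, Khdc3 was not called (adjusted p = 0.311).

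Between developmental stages of interphase, Ooep and Zbed3 were the 2 of 6 members called between zygote and GV polysomes, against 5.61% of tested genes. The log2 fold change was -1.96 for Ooep (adjusted p = 0.00297) and -2.27 for Zbed3 (adjusted p = 0.000658). Khdc3 had means of 349 FPKM in GV and 41.5 in zygotes with no overlap, as for 54.4% of tested genes. Its estimate was the most negative of the 6 (-3.03, 95% interval -6.31 to 0.25, adjusted p = 0.352). It was called with 1 added (adjusted p = 0.0307) and in a fit of the 2 groups alone (adjusted p = 0.00167). Between two-cell and GV, 4 of 6 were called, all lower, against 16.7% (Ooep, Khdc3, Padi6 and Zbed3). Padi6 was at -2.82 (adjusted p = 0.0217), a call that ended without two-cell library B or C or GV library A or C (adjusted p between 0.0507 and 0.0821). Tle6, at -2.79, stood just outside the threshold (adjusted p = 0.0539). It was called in 6 alternatives: with 0.1 or 1 added, with a mean of at least 1 FPKM, after quantile normalization, and in fits of 1 pool or of the 2 groups alone (adjusted p from 0.000319 to 0.138 over all alternatives). Between the M-phases, 2 of 6 were called between zygote M and MII (Tle6 and Khdc3, both lower), against 12.4%, and 4 of 6 between two-cell M and MII (Ooep, Tle6, Khdc3 and Zbed3, all lower), against 53%. The last share is close to that of all genes. Padi6 was called there too without both C libraries (-2.14, adjusted p = 0.0491). Comparisons with GV share the GV libraries and those with MII the MII libraries, so their calls are not independent of each other.

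**Figure D2:**
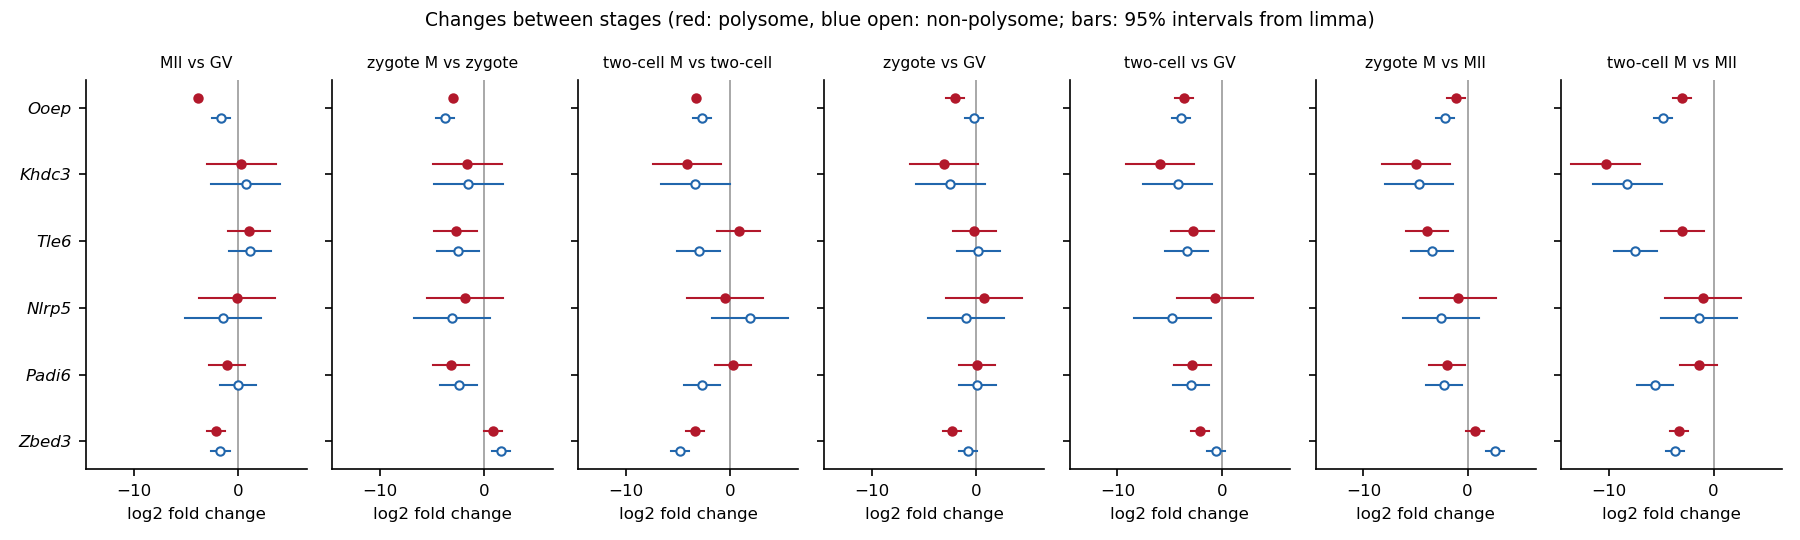
Log2 fold change of 6 members in 7 comparisons between stages, with filled red points for polysomes, open blue points for the non-polysome pool and bars for 95% intervals from limma; the M-phase changes of Ooep in polysomes are drawn with no interval. Zbed3 is right of 0 in zygote M against zygote (0.82 and 1.65) and left of 0 in two-cell M against two-cell (-3.40 and -4.83), and intervals of Khdc3 and Nlrp5 are wide.

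The change of Zbed3 differed between the divisions. Its change from zygote to zygote M in polysomes was 2.97 ± 0.60 (SE, log2) above that from GV to MII (adjusted p = 0.00108), in a comparison of changes chosen after the values were seen. It was the 1 of 5 members called there in the fit over all libraries, against 9.51% of tested genes. Tle6 (-3.76, adjusted p = 0.0978) was called as well with 0.1 or 1 added, after quantile normalization and in a fit of polysomes alone (adjusted p from 0.000643 to 0.181 over all alternatives). That made 2 of 5 members, against 17.9%, 24.5%, 24.6% and 20.2% of tested genes under these settings. For Zbed3, the change in the second mitosis minus that in the first was -4.21 (adjusted p = 7.38e-06), and -4.66 without the two-cell M C library. Padi6 differed the other way, by 3.44 (adjusted p = 0.0363), which makes 2 of 5 members against 23.7%. Tle6, at 3.56 (adjusted p = 0.0682), was not called in that fit. It was called with 0.1 or 1 added, after quantile normalization, in a fit of polysomes alone and without both two-cell M C libraries. Over all alternatives its adjusted p ran from 0.000466 to 0.151. The Padi6 call ended without any 1 of 8 libraries (adjusted p between 0.0547 and 0.101): two-cell B or C, two-cell M C, zygote B, C or D, and zygote M A or C. Between the second mitosis and meiosis 0 of 5 members were called by limma, with 1 at an unadjusted p under 0.05, against 23.5%. Without the two-cell M C libraries 2 were called, Khdc3 (-7.53) and Zbed3 (-1.70), against 29% of tested genes.

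Over all 6 stages, limma's F-test found a stage effect for 4 of 5 members other than Ooep in polysomes, against 62.9% of tested genes, and for 5 of 6 in the non-polysome pool, against 78.3%. Nlrp5 was the exception in both (adjusted p = 0.909 and 0.108). In the order of polysome means, Ooep ran from GV through zygote, two-cell, MII and zygote M to two-cell M, and of these neighbours two-cell and MII overlapped. For Zbed3 the order was GV, zygote M, two-cell, MII, zygote and two-cell M, with two-cell, MII and zygote overlapping as neighbours.

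Outside polysomes, 2 of 6 members were called between MII and GV (Ooep and Zbed3, both lower), against 16.6% of tested genes, and 2 of 6 between zygote M and zygote (Ooep lower, Zbed3 higher), against 10.4%. Between two-cell M and two-cell 4 of 6 were called, against 36.1%: Ooep, Tle6, Padi6 and Zbed3, all lower. The Tle6 and Padi6 groups overlapped, and the means of Tle6 were nearly equal, at 15.8 FPKM before and 15.6 FPKM in M-phase. The Tle6 call ended with 1 added, after quantile normalization, in a fit of 1 pool or of the 2 groups alone, and without two-cell library C or two-cell M library A or B (adjusted p between 0.0732 and 0.26 without 1 library, and up to 0.456). The Padi6 call ended after quantile normalization, in both of those smaller fits and without two-cell M library A (adjusted p = 0.251). Without both C libraries Khdc3 was also called there (-5.72, adjusted p = 2.79e-07), with Tle6 at -5.33, Padi6 at -3.04 and Zbed3 at -5.67. Between zygote and GV 0 of 6 were called by limma, and 0 had an unadjusted p under 0.05, against 13.9% called of all genes, and Khdc3 was called in a fit of the 2 groups alone. Between two-cell and GV 5 of 6 were called, all lower, against 29.7%, and Zbed3 was the one that was not (-0.53, 95% interval -1.39 to 0.34). In that comparison the call of Nlrp5 ended without 5 of the 6 libraries, two-cell B being the exception (adjusted p between 0.0657 and 0.27), and that of Khdc3 without any 1 of the 6 (adjusted p between 0.0561 and 0.127).

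Between zygote M and MII in the non-polysome pool, 4 of 6 were called, against 19.8%. Ooep, Tle6 and Khdc3 were lower, and Zbed3 was higher by 2.61 on the log2 scale (adjusted p = 3.55e-05). The Tle6 call ended without MII library B or zygote M library A (adjusted p 0.0538 and 0.06 at the extremes), and the Khdc3 call without any 1 of the 6 libraries (adjusted p between 0.0598 and 0.11). Between two-cell M and MII 5 of 6 were called, all lower, against 61.3%. Nlrp5 was not among them, and without both C libraries these 5 changes lay between -4.50 and -10.67.

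Both pools of a gradient were set against each other, gene by gene. Khdc3 was lower in polysomes in 18 of 18 gradients, with a median log2 ratio of -1.17. Of the 7967 tested genes, 80 (1%) were lower in every gradient. In MII, Khdc3 was at 378, 460 and 418 FPKM in polysomes and 833, 990 and 811 FPKM outside them. In two-cell gradients its log2 ratios were -1.78, -3.21 and -1.99. Stage by stage no ratio of Khdc3 was called in the fit over libraries, whereas with the gradient as a block it was called in two-cell (-2.33, adjusted p = 0.0235) and two-cell M (-3.14, adjusted p = 0.00475). The two-cell M ratio was also called without both C libraries (-3.83, adjusted p = 0.000989), but was -0.92 with 1 added (adjusted p = 0.667) and not called in a fit of the 2 groups alone (adjusted p = 0.7). Fits of the 2 groups alone called Khdc3 in MII (-1.07, adjusted p = 0.022) and zygote (-1.25, adjusted p = 0.00366). Over all alternatives the adjusted p ran from 0.0235 to 0.55 in two-cell and from 0.000989 to 0.87 in two-cell M.

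The ratios of Zbed3 and Ooep had both signs among the stages. Of their ratios in the fit over libraries, those of Zbed3 in GV and two-cell M were called, those of Ooep were not (adjusted p = 0.214 in GV, 0.276 in MII and 0.0533 in two-cell), and no interaction of stage and pool was called for Zbed3 (adjusted p = 0.242 for zygote M against MII). Zbed3 was 1.82, 1.28 and 1.13 higher in polysomes on the log2 scale in GV gradients, and 0.93, 0.57 and 1.37 higher in MII. In zygote M its log2 ratios were -1.02, -0.91 and -0.95, below 0 in each gradient. Ooep had ratios of 0.95, 1.36 and 0.46 in GV, and -1.48, -1.17 and -1.06 in MII. They were above 0 again in two-cell gradients, at 0.73, 2.01 and 0.77. The ratios of Tle6 stayed between -0.80 and 0.68 from GV to zygote M.

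**Figure D3:**
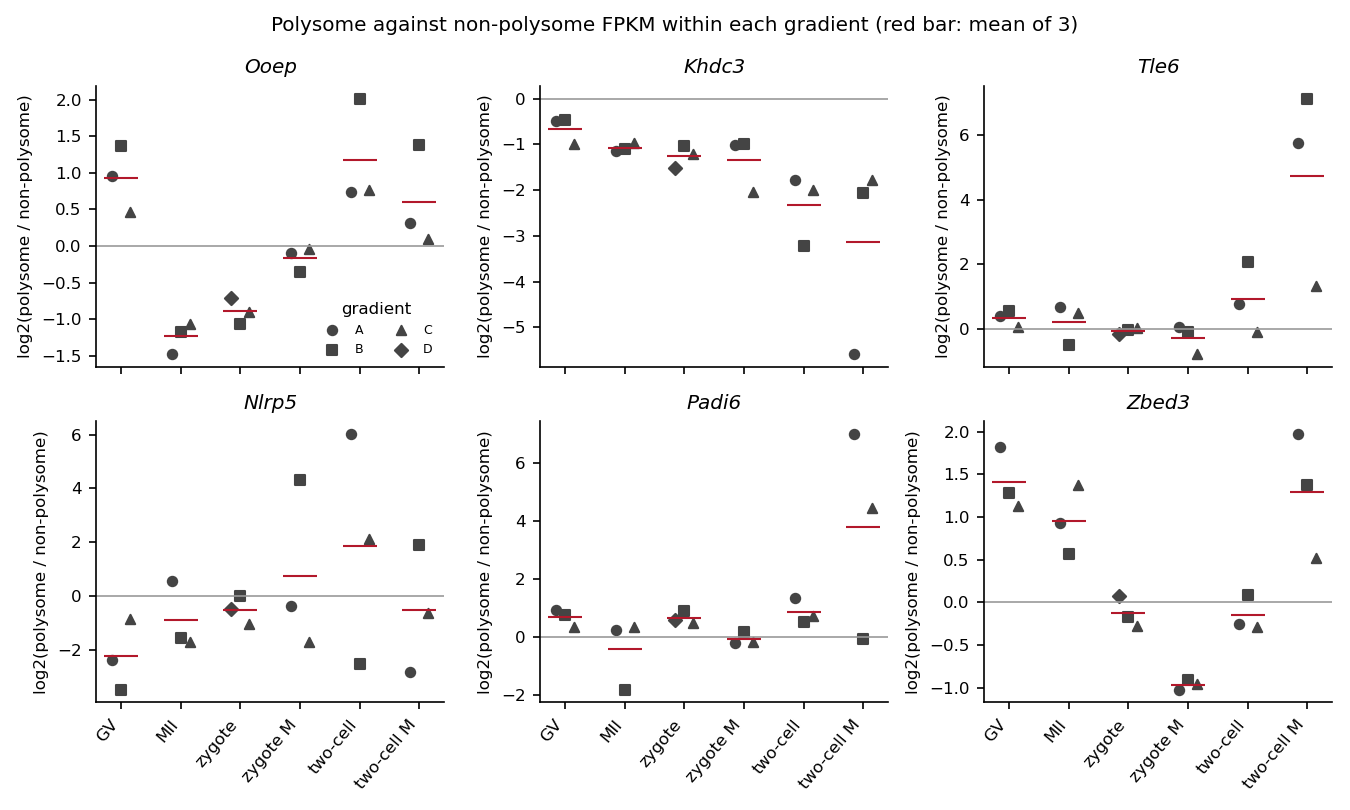
Log2 of polysome over non-polysome FPKM within each gradient for 6 members at 6 stages, with a marker shape for each gradient letter and red bars for the mean of 3. Khdc3 lies below 0 in all 18 gradients, while Zbed3 goes from above 0 in GV to below 0 in zygote M.

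By the test of polysome against non-polysome libraries, 1 of 6 members was called in GV, against 4.96% of tested genes. This was Zbed3, higher by 1.41 (adjusted p = 0.0482). With the gradient as a block the call ended (adjusted p = 0.134), as it did without GV non-polysome library A or B or without any GV polysome library (adjusted p between 0.0854 and 0.162). In MII 0 of 6 were called, with 2 at an unadjusted p under 0.05, against 0.753% called, in zygotes 0 of 6 with 1, against 1.38%, in zygote M 0 of 6 with 1, against 1.92%, and in two-cell 0 of 6 with 1, against 16.1%. Ooep in two-cell was just outside the threshold (1.17, adjusted p = 0.0533). It was called in 4 alternatives, among them 1 added, quantile normalization and leaving out non-polysome library C (adjusted p from 0.00377 to 0.292 over all alternatives). Ooep was also called in GV after quantile normalization (adjusted p = 0.0191) and in MII with the 2 groups alone (adjusted p = 0.032). The same held in two-cell M after quantile normalization or without non-polysome library C. These calls of Ooep draw on the polysome values it was singled out for, and so give no independent support. In two-cell M 3 of 6 were called, all higher in polysomes, against 14.8%.

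These 3 were Tle6, Padi6 and Zbed3, and their groups overlapped. Tle6 was at 41.9, 24.2 and 115 FPKM in two-cell M polysomes and 0.775, 0.172 and 45.8 outside them, a log2 ratio of 4.74 (adjusted p = 0.00152). Within gradients its log2 ratios were 5.76, 7.14 and 1.32. Padi6 was at 0.165, 14.1 and 3.28 FPKM outside polysomes, and its log2 ratio was 3.80 (adjusted p = 0.00248). Within gradients the ratios of Padi6 were 7.01, -0.06 and 4.47, so gradient B had no excess in polysomes. With the gradient as a block Tle6 and Padi6 were still called (adjusted p = 0.00256 and 0.0159) and Zbed3 was not (1.29, adjusted p = 0.0373 without the block and 0.0995 with it). The Zbed3 call also ended without library A of either pool, non-polysome B or polysome C (adjusted p between 0.0748 and 0.242). In a fit of the 2 groups alone none of the 3 was called (adjusted p = 0.421 for Tle6, 0.424 for Padi6 and 0.591 for Zbed3). The ratios without both C libraries were 6.45 for Tle6, 3.47 for Padi6 and 1.67 for Zbed3, all called.

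**Figure D4:**
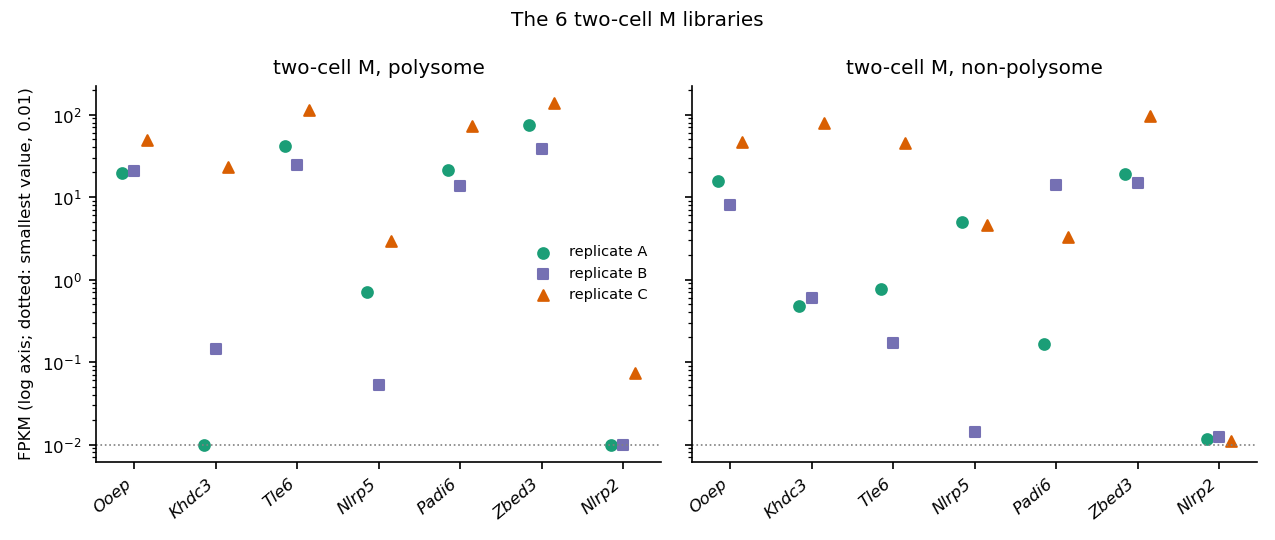
FPKM (log axis) of the 7 members in the 6 two-cell M libraries, with a colour and shape for each replicate and a dotted line at the smallest value of the table, 0.01. Replicate C is the highest for every member in polysomes and for Ooep, Khdc3, Tle6 and Zbed3 outside them, with Khdc3 at 23 FPKM against 0.01 and 0.143.

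Whether the change between stages differed between the pools was tested by an interaction. From MII to two-cell M, 1 of 6 members was called, Padi6 (4.21, adjusted p = 0.0479), against 3.3% of tested genes. With the gradient as a block it was not called (adjusted p = 0.127), nor without two-cell M non-polysome A, two-cell M polysome C or any 1 of the 6 MII libraries (adjusted p between 0.062 and 0.143). Without both two-cell M C libraries Ooep (2.09) and Tle6 (6.24) were called in its place, against 5.32%. In the other 6 comparisons no member was called by limma. The M-phase comparisons, without Ooep, had 0 of 5 called in MII against GV (0.163% of tested genes), 0 of 5 in zygote M against zygote (0.289%) and 0 of 5 in the second mitosis (5.75%), with 0, 0 and 3 at an unadjusted p under 0.05. Without the C libraries the last count was 2, Tle6 (5.54) and Zbed3 (1.82), against 8.13% of tested genes. The rest had 0 of 6 in zygote against GV (0.0126%), 0 of 6 in two-cell against GV (2.26%) and 0 of 6 in zygote M against MII (0.427%), with 2, 1 and 1 at an unadjusted p under 0.05.

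The members' patterns over the 12 group means were compared by Pearson's r, as a description over groups that share libraries' pools and stages. Tle6 and Padi6 were the pair most alike (r = 0.95), followed by Ooep and Padi6 (0.86), and Nlrp5 and Zbed3 the pair least alike (0.07). Among 4010 other coding genes whose mean reached 1 FPKM, Ooep was most like Fam234b (0.934), Elobl (0.927) and Zar1 (0.914), a maternal-effect RNA-binding protein gene. Tle6 was most like Fbxw16 (0.984), Snai1 (0.968) and Fbxw26 (0.958), and Padi6 like Fbxw26 (0.970), Fbxw24 (0.969) and Rbm22 (0.955). Khdc3 was most like Dclre1a (0.963), Fbxw19 (0.954) and H1foo (0.953), the oocyte linker histone gene. Zbed3 was most like E2f2 (0.973), Sin3b (0.968) and Rnf114 (0.962), and Nlrp5 like Tmem209 (0.886), Ftsj3 (0.871) and Arcn1 (0.870).

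Of 15 listed maternal-effect and lattice-linked genes outside the members, 13 were tested. In polysomes 1 was called lower and 0 higher in MII against GV, 0 in either direction in zygote M against zygote, and 7 lower and 1 higher in the second mitosis. Of all tested genes 2.75% were called lower and 3.36% higher in the first of these comparisons, 2.51% and 3.24% in the next, and 28.1% and 8.13% in the second mitosis. Zar1 had 1320 FPKM in GV polysomes, 333 in MII and 2.58 in two-cell M on average. Dppa3, a protector of maternal methylation, was the gene called higher in two-cell M (1.21, adjusted p = 0.0153), at 96.8 FPKM against 37.8 in two-cell, while Zbed3 and Ooep were low there. There the median log2 change of the 13 was -2.29, and that of all tested genes -1.17. Among 17 relatives by gene family, 7 were tested, of which 3 were lower and 1 higher by the same test in the second mitosis. Padi1 to Padi4 and Tle1 to Tle4 were not tested and had polysome means of at most 0.246 FPKM in any stage, against 162 for Padi6 and 193 for Tle6 in GV. The summed level of the relatives in two-cell M polysomes was 501 FPKM in library C, against 1200 and 889, and the list counts include that library. Dppa5a, a KH-domain relative of Ooep and Khdc3, was the one called higher in the second mitosis (2.82, adjusted p = 7.99e-06), at 845 FPKM against 115. All 17 listed actin, tubulin, cofilin and 14-3-3 genes, whose products the complex is known to work with, were tested. Of these, 2 were called lower in MII against GV (Actb and Ywhab), 1 in zygote M against zygote (Tubb4b) and 6 in the second mitosis, and 0 higher in these 3 comparisons, the 6 of 17 being near the 28.1% of all genes called lower there.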

How the data were processed

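RNA of polysome and non-polysome pools was sequenced from 6 stages of mouse oocytes and embryos by SMART-seq v4. Per the labels, the authors trimmed reads with Trim Galore 0.4.1, mapped them with STAR 2.5.3a to GRCm38 and quantified genes in Partek. The authors deposited 1 table of normalized FPKM values. Library depth and the handling of reads shared between related genes are not given in the sources used here, so no counting error is given. Of 38 samples, 2 from zygotes have no column and were left out.

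Samples were grouped by the stage, pool and replicate letter of their titles. Deposited FPKM values were put on a log2 scale without an offset, and limma 3.58.1 (R 4.3.3) estimated 12 group means over 36 libraries, with a trend and two-sided tests, for 7967 genes. Fold changes of genes near the smallest value, 0.01, depend on it. The thresholds are the study's, whose own software was not used here. The members, lists and tests were chosen with earlier results of these data known, and so give no independent support. The genes named are the members, for each tested member the 3 genes most like it, and up to 4 of each list with the highest mean. Ywhab and the haemoglobin genes were named after their values were seen. Both pools of a letter and stage come from 1 gradient, so the gradient was used as a block for comparisons of the pools. The residuals of the 18 pairs correlated with a mean r of 0.0756, above 0.1 in 6. Letters do not pair stages: residuals correlated with a mean r of 0.0205 in polysomes. The script was tested on simulated data. Alternatives were other offsets, minimums, normalization, libraries, blocks and leaving out each library. Sequences and the search of 3′ ends used GENCODE M21, with 1 transcript per gene (a complete 3′ end first, then the best APPRIS principal rank, then the longest 3′ UTR). Protein sequences were not used here. Figures were drawn with matplotlib in Python.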

Additional observations from a re-analysis of the deposited data

Results flagged for a closer look

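4 results differed between the contrasts compared. Padi6 had a change from MII to two-cell M that was 4.21 ± 1.20 (SE, log2) higher in polysomes than outside them (adjusted p = 0.0479). Zbed3 had a change from zygote to zygote M in polysomes that was 2.97 ± 0.60 above its change from GV to MII (adjusted p = 0.00108). From two-cell to two-cell M, the polysome change of Zbed3 differed from that in the first mitosis by -4.21 ± 0.60 (adjusted p = 7.38e-06), and that of Padi6 by 3.44 ± 1.20 (adjusted p = 0.0363). All 4 come from limma over all tested genes. The last 3 were chosen after the values were seen. In two-cell M polysomes, Padi6 was highest in library C (72.6 FPKM, against 21.3 and 13.5), as was the oocyte marker sum (165 FPKM, against 55.4 and 32.6). Outside polysomes Padi6 was at 3.28 FPKM in C, below the 14.1 of B. The part of library C's marker level in these results was not tested. Without both C libraries the Padi6 values were 3.88 (adjusted p = 0.0843) and 2.74 (adjusted p = 0.0937), neither called.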

How the results depend on the processing

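Each comparison's count of members called was recomputed under other settings. Of 239 such counts, 189 stayed within 1.5 times the first value, and no called change of a member turned its direction in 1434 values from other settings or 1440 with 1 library left out. With 0.1 added to each FPKM, 1 member was called in polysomes between two-cell M and two-cell (35.8% of all tested genes, from 36.3%). For the first mitosis against meiosis it was 2 (17.9%, from 9.51%). With 1 added these were 1 (26.9%) and 2 (24.5%). Outside polysomes 4 were then called between zygote M and zygote (10.9%), and 1 between the pools in two-cell (15.7%). In polysomes the counts were 4 between zygote M and MII (22.3%, from 12.4%) and 2 between zygote M and zygote (11.3%, from 5.75%). With no minimum, 1 was called in polysomes for two-cell M against two-cell, 1 for zygote M against MII and 1 for the second against the first mitosis. Of all genes then tested, 15.6%, 5.67% and 9.25% were called in these, from 36.3%, 12.4% and 23.7%. The member count was 3 outside polysomes for two-cell against GV (13.6%, from 29.7%). It was 0 for the pools in GV (1.88%, from 4.96%) and 0 for the interaction of two-cell M against MII (1.5%, from 3.3%). With the 2 groups alone, polysome counts were 4 for zygote M against zygote (33.1% of all tested genes), 4 against MII (40.6%, from 12.4%) and 1 for two-cell M against two-cell (20.9%). Non-polysome counts were 5 (10.5%), 1 for zygote against GV (21.3%), and 1 for two-cell M against two-cell (11%). Between the pools they were 0 in GV (4.26%), 2 in MII (6.45%), 1 in zygote (20.1%) and 0 in two-cell M (0.238%). With the libraries of 1 pool, counts were 2 and 1 in polysomes for the first and second mitosis (11.9% and 48.4% of all tested genes). Outside them they were 1 and 2 (5.06% and 26.3%), and 2 for two-cell against GV (20.1%). For the first mitosis against meiosis the count was 2 (20.2%). With quantile normalization they were 2 and 1 in polysomes for the first and second mitosis (14.6% and 37.3% of all tested genes), 4 for zygote M against MII (26.1%), 2 outside them for two-cell M against two-cell (25.4%), 2, 1 and 1 between the pools in GV, MII and two-cell (11%, 1.48% and 16.1%), and 2 for both the interaction of two-cell M against MII (1.98%) and the first mitosis against meiosis (24.6%). It moved the median change of all genes in polysomes from -1.17 to 0.22 in two-cell M against two-cell, and the share of calls that were lower from 77.6% to 50.1%. Without both two-cell M C libraries, 2 were called in each of 3: the interactions of two-cell M against two-cell and MII (8.13% and 5.32%), and the second mitosis against meiosis (29%). With the gradient as replicate block, the counts were 0 in the pools in GV (2.72%), 1 in two-cell (15.2%) and 0 for the interaction of two-cell M against MII (2.17%). Stages share only a letter, so a letter block is given here alone. It gave 0 for zygote M against zygote in polysomes (4.71%), and 0 and 1 between the pools in GV and two-cell (4.48% and 15.4%). For the same interaction it gave 0 (2.96%), and for the second against the first mitosis 1 (21.3%). Except as stated, causes were not tested.

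With 1 library left out, counts ran from 0 to 1 in polysomes for zygote M against zygote, from 1 to 2 for two-cell M against two-cell, and were 1 for zygote M against MII. Outside polysomes they ran from 2 to 5 for two-cell M against two-cell, from 3 to 4 for two-cell against GV and from 2 to 3 for zygote M against MII. Between the pools they ran from 0 to 1 in GV and in two-cell. For the interactions of two-cell M they ran from 0 to 3 against MII and from 0 to 2 against two-cell. For the second mitosis they ran from 1 to 2 against the first and from 0 to 2 against meiosis.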
